A study of Mus musculus with 48 samples.

Results

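The genes described here handle calcium in mouse brain cells. They are the 65 genes, of 15782 measured, whose symbols mark a voltage-gated calcium channel subunit (Cacn), a calcium pump (Atp2a, Atp2b, Atp2c), a sodium/calcium exchanger (Slc8a), a store release channel (Itpr, Ryr), a store-operated entry protein (Orai, Stim), a calmodulin (Calm), a calmodulin kinase or kinase inhibitor (Camk) or a calcineurin subunit (Ppp3). The rule uses symbols and no measured value, though it was set with earlier results of these data known. All 65 were placed on the mouse genome (GRCm38, GENCODE M21). 61 of them lay above 1.5 times the negative-control probes in at least 24 of 48 areas, 36 did so in all 48, and the other 4 (Cacna2d1, Cacna2d4, Cacng4 and Atp2a1) did so in 18 to 20 areas.

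The study measured RNA in brain sections by GeoMx digital spatial profiling, in which probes hybridized to the tissue carry DNA tags that ultraviolet light releases from a chosen area for sequencing. All mice were male C57BL/6, 10 weeks old. Flight mice (FLT) lived on the International Space Station for 35 days, and their brains were taken after return, with transport within 20 hours of splashdown. Ground control mice (GC) spent 35 days in flight hardware cages under a protocol that began 3 days later. Mice of each arm received either saline (SAL) or BuOE (MnTnBuOE-2-PyP5+, a manganese porphyrin antioxidant) at 1 mg/kg in 0.2 mL under the skin, 7 days before launch and then weekly. This gave the ground groups GC-SAL and GC-BuOE and the flight groups FLT-SAL and FLT-BuOE, with 3 mice each. In each of the 12 mice, 1 area was collected from the CA (labelled cornu ammonis 1 of the hippocampus), the dentate gyrus (DG), the frontal cortex (FCT) and another part of the cortex (CT). Areas were placed by eye with the help of staining for GFAP, Iba1 and nuclei, so each holds several cell types. The 3 mice of a group shared 1 slide, and slide and group therefore cannot be told apart in any comparison below.

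Calcium enters neurons through voltage-gated channels and through Orai channels, which open when the endoplasmic reticulum empties and Stim proteins sense it, and it is released from that store by IP3 and ryanodine receptors. Pumps of the cell surface (PMCA), of the reticulum (SERCA) and of the Golgi (SPCA), together with sodium/calcium exchangers, bring it down again. Calmodulin binds the calcium that enters and activates calmodulin kinase II (CaMKII), other calmodulin kinases and the phosphatase calcineurin, a set of enzymes best known in hippocampus and cortex for their part in synaptic plasticity.

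Sequencing gave 322629 to 1579380 deduplicated counts per area (median 652040). Values are Q3-normalized counts, that is, counts scaled so that every area has the same upper quartile. The upper quartile stood above the negative-control value least in CA (median 2.12 times, 12 areas) and most in DG (median 3.57 times). Depth moved with a group. The FLT-SAL areas had 965868 to 1372780 counts in DG, 603927 to 948561 in CA and 991160 to 1579380 in FCT, against 496732 to 767199, 370066 to 483270 and 601288 to 897280 in GC-SAL, and the ranges overlapped in CT alone. The FLT-BuOE areas were shallower than the FLT-SAL areas in all 4 regions (416744 to 628791 in DG). Nuclei in DG numbered 545 to 640 in FLT-SAL, 477 to 528 in GC-SAL and 401 to 453 in FLT-BuOE. The part of depth and nuclei in the differences between these groups was not tested. Probes differ in how well they bind, so levels of different genes are not compared. In a bulk area, fewer cells of a type and less RNA per cell cannot be told apart. The region labels were checked against marker genes: 5 of 6 dentate granule cell markers were called higher and 5 of 6 CA1 pyramidal markers called lower in DG than in CA.

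The calcium genes differed first of all between regions. A gene was called when limma gave an adjusted p below 0.05 over all 15782 genes and the levels differed by more than 1.5-fold. DG and CA differed in 14 of the 65 (21.5%), 8 higher and 6 lower in DG, beside 4.10% of all genes (2.41% higher and 1.69% lower). Hippocampal areas (CA and DG) differed from cortical areas (FCT and CT) in 20 (30.8%), 10 higher and 10 lower, beside 3.18% of all genes (0.881% higher and 2.30% lower). FCT and CT differed in 2 (3.08%), 1 higher and 1 lower in FCT, beside 0.101% of all genes (0.0570% higher and 0.0444% lower). The members lay at high levels more often than other genes. In DG 18 of the 65 had a mean of at least 100, beside 566 of all 15782 genes. Region calls were not split by level, so these shares do not compare genes of like level. The split between higher and lower depended on the scaling. With quantile normalization DG against CA gave 6 higher and 10 lower and hippocampus against cortex 13 and 8. After subtraction of the negative-control value DG against CA gave 23 higher and 5 lower, where the median of all genes shifted by 0.71 on the log2 scale. No named difference changed sign under these settings.

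Among the pore subunits of voltage-gated channels, L-type and T-type genes separated DG from CA. Cacna1c, the main neuronal L-type pore, ran from 85.0 to 113 in DG (median 103) and from 37.3 to 47.0 in CA (median 40.02), higher in DG in 12 of 12 mice (log2 1.28, SE 0.08, limma adjusted p = 9.95e-26). Cacna1d, the other L-type pore of neurons, was also higher in DG (log2 0.86, adjusted p = 2.26e-14). The T-type genes, which open at low voltage, went in opposite directions. Cacna1h lay between 66.7 and 201 in DG against 27.4 to 58.5 in CA (log2 1.34, adjusted p = 3.96e-20), and Cacna1i was lower in DG (log2 -0.90, adjusted p = 1.85e-14). Cacna1e, the R-type pore, was higher in hippocampal than in cortical areas in all 12 mice (log2 0.92, adjusted p = 6.99e-32).

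Of the auxiliary subunits, Cacng8, which also serves AMPA receptors, was higher in hippocampus (CA median 154, DG 133, FCT 67.0, CT 69.6; log2 1.05, adjusted p = 5.33e-31), and the beta subunit gene Cacnb4 was lower there (log2 -0.89, adjusted p = 3.11e-23). Cacna2d3, an alpha2delta subunit, was one of the 2 genes that separated the cortical areas. It was lower in FCT (median 39.2) than in CT (median 54.9), with a log2 difference of -0.59 (SE 0.10, adjusted p = 5.87e-05) and the higher value in FCT in 2 of 12 mice. The groups did not share this order: the mean was 24.3 in FCT and 59.2 in CT in GC-SAL, but 59.4 and 52.2 in GC-BuOE. The log2 difference fell short of the fold threshold with a pseudocount of 5, with quantile normalization and in 8 of the 12 fits that left out 1 mouse (-0.51 without GC-SAL mouse 1).

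Pumps and exchangers divided the regions by gene rather than by class. Slc8a1, the sodium/calcium exchanger NCX1, was at 30.0 to 54.1 in DG and at 110 to 135 in CA, the difference furthest from 0 among the 65 genes between these regions (log2 -1.55, SE 0.08, adjusted p = 1.44e-32). Slc8a2, which encodes NCX2, went the other way (114 to 226 in DG, 61.1 to 117 in CA, log2 0.88, adjusted p = 2.34e-15). Of the PMCA pumps, Atp2b1 was lower in DG than in CA (log2 -0.83, adjusted p = 5.13e-15), Atp2b2 was lower in hippocampus than in cortex (log2 -1.01, adjusted p = 9.81e-30), and Atp2b4 was higher in FCT than in CT in 9 of 12 mice (medians 46.8 and 29.2, log2 0.72, SE 0.12, adjusted p = 4.54e-05), though not after subtraction of the negative-control value (adjusted p = 0.0645). The SERCA gene Atp2a2 was lower in hippocampus (log2 -0.59, adjusted p = 3.00e-14), at the fold threshold, and was no longer called under quantile normalization (log2 -0.47), with a pseudocount of 5 or in 6 of the 12 fits that left out 1 mouse.

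The ryanodine receptors marked CA and DG in opposite ways. Ryr3 was highest in CA (107 to 172, median 147), with medians of 60.0 in DG, 48.8 in FCT and 37.3 in CT (DG against CA log2 -1.23, adjusted p = 5.55e-25). Ryr2 was highest in DG (106 to 155) and lay at 43.1 to 101 in CA (log2 0.86, adjusted p = 1.50e-15). The IP3 receptor gene Itpr1 was lower in DG than in CA (log2 -0.67, adjusted p = 3.37e-10). For store-operated entry, Orai2 was ordered DG, CA, CT, FCT by its medians (81.0, 54.3, 31.1 and 29.6) and was higher in hippocampus in all 12 mice (log2 1.05, adjusted p = 1.31e-24), as was the store sensor Stim2 (log2 0.76, adjusted p = 2.39e-18). CT and FCT did not differ detectably in Orai2.

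Of the 4 CaMKII subunit genes 1 was called higher and 1 lower in hippocampus than in cortex, and both genes of CaMKII inhibitors were called lower. Camk2b, the beta subunit, had medians of 283 in DG, 173 in CA, 103 in CT and 102 in FCT, and was higher in hippocampus than in cortex in 12 of 12 mice (log2 1.12, SE 0.06, adjusted p = 6.55e-35). Camk2n1, which encodes an endogenous inhibitor of CaMKII, was at 252 to 574 over all hippocampal areas and at 523 to 2067 over all cortical areas, lower in hippocampus in 12 of 12 mice (log2 -1.59, SE 0.06, adjusted p = 8.60e-45). Camk2n2, the second inhibitor gene, was lower in hippocampus as well (log2 -0.95, adjusted p = 8.45e-21), and so was Camk2g (log2 -0.65, adjusted p = 1.32e-12). Ppp3ca, the main catalytic calcineurin subunit of brain, was higher in hippocampus (medians 184 in DG and 153 in CA against 94.7 in FCT and 102 in CT, log2 0.81, adjusted p = 3.41e-25). The calmodulin genes Calm2 and Calm3 were not called.

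**Figure D1:**
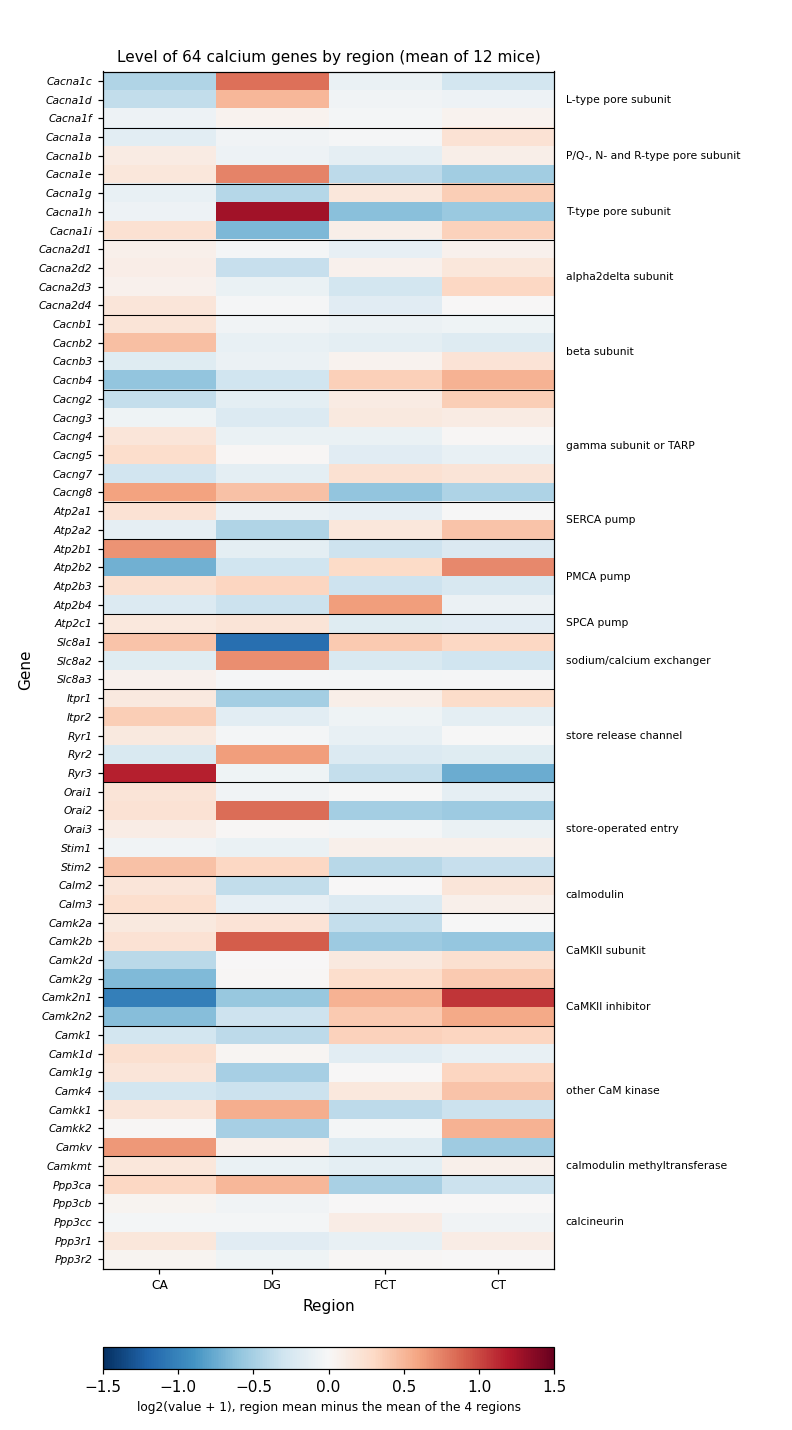
Level of 64 of the 65 calcium genes by region (columns) as the mean of 12 mice on the log2(value + 1) scale, minus the mean of the 4 regions, with genes grouped by role. Cacna1h, Cacna1c, Orai2 and Camk2b are high in DG, Ryr3 and Atp2b1 in CA, and Camk2n1 and Atp2b2 in CT.

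Spaceflight was compared with ground control in saline mice, region by region. In DG, 5 of the 65 genes were called, all higher in flight (7.69%), beside 0.247% of all genes called higher and 0.266% called in either direction. They were both calcineurin genes Ppp3ca and Ppp3r1, the calmodulin gene Calm3, the CaMKII gene Camk2b and the store-operated channel gene Orai2, with differences of 0.59 to 0.68 on the log2 scale. The study itself named calcium signaling for DG from these same mice, so the count is not independent evidence of that direction. The median over the 65 genes was 0.11, beside -0.01 over all genes, and 35 of 65 differences lay above 0 (53.8%, beside 48.7% of all genes). By level, of the 18 members with a mean of at least 100 in DG, 16 were above 0 with a median of 0.40, beside 74.6% and 0.16 for the 566 such genes in all, and the 47 below that level had a median of -0.03. Calls depended on level too. At or above 100, 4 of the 18 members were called (22.2%), beside 4.42% of the 566 genes. Below it, 1 of the 47 was (2.13%), beside 0.112% of all genes below that level. The level of 100 was chosen after the values were seen.

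Camk2b (chromosome 11, 5969644-6066362, minus strand) encodes the beta subunit that ties CaMKII to actin. Its DG values were 390, 366 and 369 in the FLT-SAL mice and 219, 289 and 244 in the GC-SAL mice. All 3 flight mice lay above all 3 ground mice, and the means were 375 ± 12.9 and 251 ± 35.0 (SD, n = 3 each; log2 0.59, SE 0.13, limma adjusted p = 0.0175). This log2 difference sits at the fold threshold, and with a pseudocount of 5, edgeR or DESeq2 the gene was no longer called.

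Calcineurin is built from a catalytic and a regulatory subunit, and 1 gene of each kind rose. Ppp3ca (chromosome 3, 136670124-136937727, plus strand) was at 233, 230 and 213 in FLT-SAL and at 127, 172 and 149 in GC-SAL. The groups did not overlap (225 ± 10.9 against 149 ± 22.6, log2 0.60, SE 0.13, adjusted p = 0.0191). Ppp3r1 (chromosome 11, 17159263-17200375, plus strand), the calcium-binding regulatory subunit, was at 138, 159 and 152 against 97.99, 115 and 82.0. These groups were apart too (149 ± 10.5 against 98.5 ± 16.7, log2 0.61, SE 0.14, adjusted p = 0.0308). The other catalytic genes did not pass, with a log2 difference of 0.12 for Ppp3cb (adjusted p = 0.958) and of -0.46 for Ppp3cc (adjusted p = 0.602), nor did the regulatory gene Ppp3r2, best known from testis (0.20, adjusted p = 0.948).

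The calmodulin genes encode the same protein from near-identical coding sequences, and reads of their probes were not checked for cross-binding here. Calm3 (chromosome 7, 16915379-16924114, minus strand) was at 159, 205 and 185 in FLT-SAL and at 99.4, 120 and 125 in GC-SAL, without overlap (183 ± 22.8 against 115 ± 13.6, log2 0.67, SE 0.16, adjusted p = 0.0351). Calm2 differed by 0.43 (adjusted p = 0.111).

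Orai2 (chromosome 5, 136147459-136170713, minus strand), a pore subunit of the store-operated channel, was at 114, 99.8 and 122.9 in FLT-SAL and at 60.7, 76.3 and 72.04 in GC-SAL. The lowest flight mouse stood above the highest ground mouse (112 ± 11.7 against 69.7 ± 8.06, log2 0.68, SE 0.15, adjusted p = 0.0250). The other genes of this class did not pass, at -0.06 for Orai1, -0.09 for Orai3, 0.15 for Stim1 and -0.11 for Stim2, with adjusted p-values of 0.954 to 0.980.

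Among exchangers and pumps in DG none was called. Slc8a2 was at 226, 186 and 202 in FLT-SAL against 115, 167 and 146 in GC-SAL, apart but with a log2 difference of 0.53 and an adjusted p of 0.0534. The PMCA genes Atp2b1, Atp2b2 and Atp2b3 differed by 0.38, 0.43 and 0.36 (adjusted p = 0.397, 0.309 and 0.613). The fourth PMCA gene, Atp2b4 (chromosome 1, 133699457-133801041, minus strand), pointed the other way. It was at 14.1, 20.8 and 21.4 in FLT-SAL and at 44.2, 27.9 and 25.01 in GC-SAL, close to the negative-control probes (median 1.96 times over DG), and its log2 difference of -0.73 (SE 0.25) did not pass (adjusted p = 0.285). The nearest to the threshold of the voltage-gated channel genes was Cacna1a, the P/Q-type pore, at 0.57 (adjusted p = 0.0875), and none of the 5 store release channel genes passed even an unadjusted p of 0.05.

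Of the 65 genes, 16 had all FLT-SAL mice above all GC-SAL mice in DG (24.6%, beside 7.39% of all genes) and 4 had them below (6.15%, beside 7.45%). At an unadjusted p below 0.05, 15 were higher (23.1%, beside 4.43%) and 2 lower (3.08%, beside 2.98%). The 5 calls depended on the scaling and on single mice. Under quantile normalization none of the 5 was called (log2 0.42 to 0.56, adjusted p 0.126 to 0.223), nor after subtraction of the negative-control value (log2 0.61 to 0.80, adjusted p 0.056 to 0.125). Leaving out 1 mouse gave 6 calls when GC-SAL mouse 2 was dropped, 1 when FLT-SAL mouse 1 or mouse 2 was, and 0 when FLT-SAL mouse 3 or either of GC-SAL mice 1 and 3 was. Calm3 was not among the 6 calls made without GC-SAL mouse 2 (limma adjusted p = 0.0578). It was not called without GC-BuOE mouse 1 either (adjusted p = 0.0514). The direction of the 5 genes stayed higher in flight in each of these settings.

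Cell-type markers moved with the same groups in DG. Summed over 6 dentate granule cell markers, FLT-SAL mice reached 462 to 513 and GC-SAL mice 362 to 403, and all 6 lay above 0 with 1 called (C1ql2, log2 0.60, adjusted p = 0.0381). The 5 general neuron markers summed to 837 to 912 against 668 to 785, the 7 astrocyte markers to 414 to 458 against 343 to 385, and 6 GABAergic markers to 224 to 269 against 184 to 208, none of them with a called gene. The 6 GABAergic markers summed were not the whole list chosen for these cells, and the statement covers those summed only. The 8 oligodendrocyte markers summed to 460 to 527 against 515 to 564. No marker was at 0 in any area. Their part in the calcium gene differences was not tested.

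The 5 genes called in DG in saline mice were all called in the same direction, and whether they vary together was not tested. The promoters of 4 of them are shown. Each is the 250 bases before the RefSeq gene start on GRCm38.p6, read 5′ to 3′ on the gene's strand. The GENCODE coordinates given above differ from these starts. By them, the Camk2b window lies wholly inside the gene, and the windows of Orai2, Calm3 and Ppp3r1 partly overlap their genes. Ppp3ca is not shown. Capitals mark matches, on either strand, to any of 5 motifs. TGACG is the core of a cyclic AMP response element, whose full form is TGACGTCA and includes it. An E-box was searched as CACGTG. The GC box was GGGCGG, and the motif for a TATA box was TATAAA. The windows are chr5:136170657-136170906 on the minus strand for Orai2, chr7:16924033-16924282 on the minus strand for Calm3, chr11:6065749-6065998 on the minus strand for Camk2b and chr11:17159048-17159297 on the plus strand for Ppp3r1.
Orai2: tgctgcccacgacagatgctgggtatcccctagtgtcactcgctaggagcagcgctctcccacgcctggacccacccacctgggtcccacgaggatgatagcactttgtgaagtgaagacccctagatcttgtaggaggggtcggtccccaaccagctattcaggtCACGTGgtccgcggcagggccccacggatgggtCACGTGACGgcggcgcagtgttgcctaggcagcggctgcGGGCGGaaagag
Calm3: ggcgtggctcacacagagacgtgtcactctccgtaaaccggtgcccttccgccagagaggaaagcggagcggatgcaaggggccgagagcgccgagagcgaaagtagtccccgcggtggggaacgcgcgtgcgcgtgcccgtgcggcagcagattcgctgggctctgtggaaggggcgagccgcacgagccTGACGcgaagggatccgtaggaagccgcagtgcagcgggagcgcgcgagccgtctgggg
Camk2b: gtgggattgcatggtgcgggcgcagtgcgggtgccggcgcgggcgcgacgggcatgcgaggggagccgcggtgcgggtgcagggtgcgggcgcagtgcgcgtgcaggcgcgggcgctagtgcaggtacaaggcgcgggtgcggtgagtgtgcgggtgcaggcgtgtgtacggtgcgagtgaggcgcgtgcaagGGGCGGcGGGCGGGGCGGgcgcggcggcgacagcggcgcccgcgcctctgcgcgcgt
Ppp3r1: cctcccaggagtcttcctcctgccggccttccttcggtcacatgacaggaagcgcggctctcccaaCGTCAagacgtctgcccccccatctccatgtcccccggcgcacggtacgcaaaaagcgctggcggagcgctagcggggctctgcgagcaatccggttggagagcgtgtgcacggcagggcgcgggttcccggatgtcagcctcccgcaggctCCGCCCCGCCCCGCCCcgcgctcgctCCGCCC
In Orai2 the second of 2 E-boxes overlaps a TGACG core, and a GC box lies close to the start. Calm3 holds 1 TGACG core and no GC box. Camk2b holds 3 GC boxes and is 78.4% G or C. Ppp3r1 holds 1 TGACG core and 4 GC boxes, all on the opposite strand, so that they read CGTCA and CCGCCC here. None of the 4 holds the full cyclic AMP response element or a TATA box. Of 62 promoters listed for 48 of the 65 genes, 58.1% hold a GC box, beside 32.7% of all 32851 promoters, 22.6% hold TGACG, beside 17.8%, 1.61% hold CACGTG, beside 6.02%, 1.61% hold TATAAA, beside 12.4%, and 0 hold TGACGTCA, beside 1.55%. Median G and C content was 63.2% in these promoters and 52.4% in all. A match describes the letters only.

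**Figure D2:**
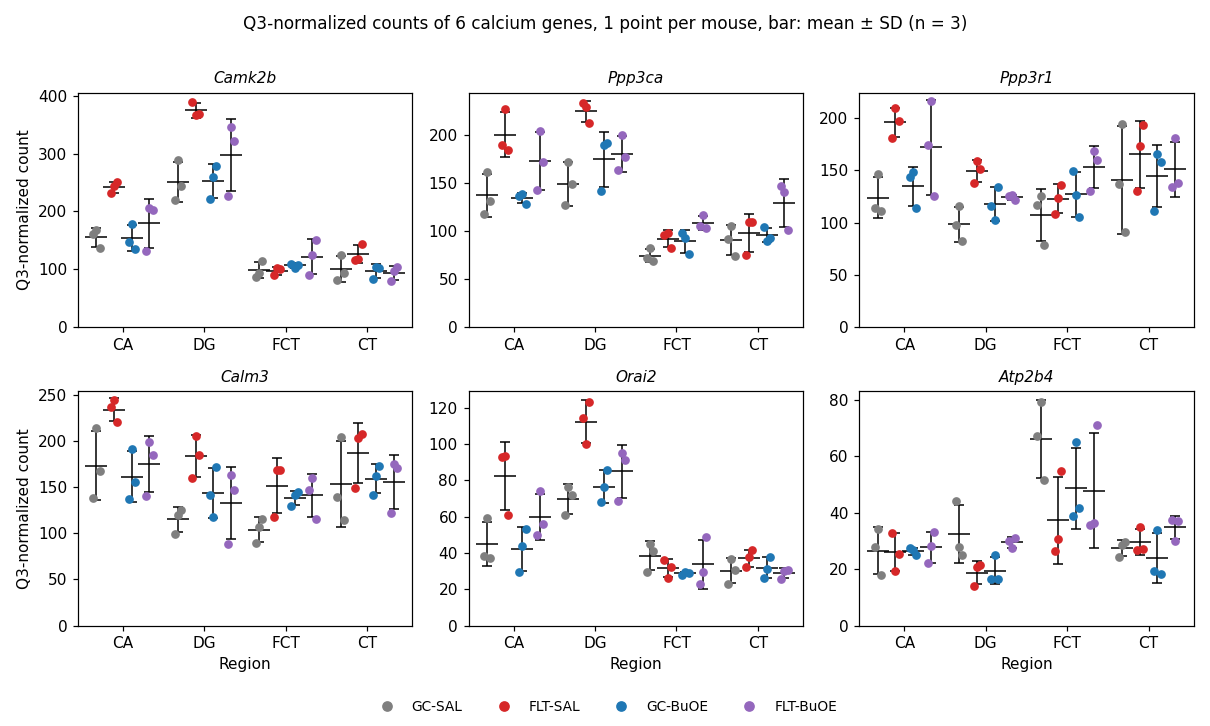
Q3-normalized counts (vertical axis, from 0) of Camk2b, Ppp3ca, Ppp3r1, Calm3, Orai2 and Atp2b4 in the 4 regions (horizontal axis), with 1 point per mouse, a long bar for the group mean and whiskers for the SD (n = 3). In DG the 3 FLT-SAL points of the first 5 genes lie above all 3 GC-SAL points, and those of Atp2b4 lie below them.

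In CA the same comparison gave no called member, beside 0.139% of all genes (22 of 15782). At an unadjusted p below 0.05, 15 members were higher (23.1%, beside 4.63% of all genes) and 0 lower (beside 2.10%), with a median of 0.20 over the members and 0.02 over all genes. Camk2b was at 232, 243 and 250 in FLT-SAL and at 162, 168 and 136 in GC-SAL, without overlap (log2 0.64, SE 0.16, limma adjusted p = 0.0635). Ppp3r1 was at 181, 209 and 197 against 114, 147 and 111 (log2 0.67, adjusted p = 0.0635). Orai2 was at 93.0, 93.4 and 60.8 against 38.5, 59.1 and 37.1 (log2 0.87, adjusted p = 0.0645), and its lowest flight mouse stood just above its highest ground mouse.

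These adjusted p-values lie close to the threshold. In CA 3 members were called with the filter on low values, edgeR, only the 2 groups compared or the replicate number as a block. With DESeq2 2 were. The shares of all genes called under these settings are not given here, so these counts do not set the members apart from other genes. Ppp3ca (0.55, adjusted p = 0.147), Camkk1, an activating kinase of the calmodulin kinases (0.60, adjusted p = 0.207), Atp2b2 (0.57, adjusted p = 0.253) and Slc8a2 (0.56, adjusted p = 0.226) did not pass. Atp2b4 was at -0.02 (adjusted p = 0.999). Of the 14 members with a mean of at least 100 in CA all 14 were above 0 (median 0.35), beside 74.8% of the 449 such genes (median 0.17). Neuron markers moved with the groups here as well: the 5 general neuron markers summed to 754 to 797 in FLT-SAL and 536 to 608 in GC-SAL, and the 6 CA1 pyramidal markers to 570 to 619 against 423 to 484. Their part was not tested.

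In the cortex no member was called in saline mice. FCT (0.0507% of all genes called) had 3 members higher and 4 lower at an unadjusted p below 0.05, beside 3.69% and 1.98% of all genes. CT (0.0887% called) had 4 and 6, beside 2.87% and 2.40%. Cacna1e was at 74.9, 92.9 and 108 in FLT-SAL and at 147, 134 and 131 in GC-SAL in FCT, without overlap, but its log2 difference of -0.59 did not pass (adjusted p = 0.219). Atp2b4 was at 26.3, 30.7 and 54.9 against 67.4, 79.3 and 51.8 in FCT (log2 -0.86, adjusted p = 0.244). Calm3 in FCT differed by 0.53 (adjusted p = 0.397), and Cacnb3, a beta subunit gene, was at -0.58 in FCT (adjusted p = 0.444) and at -0.46 in CT (adjusted p = 0.562). The difference furthest from 0 in CT, -1.07 for Cacna2d1 (adjusted p = 0.350), came with 1 high ground mouse, at 86.6 beside 15.8 and 19.7. Of the 8 oligodendrocyte markers 4 were called higher in CT (among them Cnp, Mobp and Cldn11), with sums of 1321 to 1846 in FLT-SAL against 730 to 800 in GC-SAL, and their part in the calcium gene values of CT was not tested.

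For saline mice, the flight difference averaged over 4 regions came from 1 fit of all 48 areas, with mouse as a random block. The block correlation was 0.0255, so the fit took the 4 areas of a mouse as nearly independent. No member passed both the p and the fold threshold, beside 0.095% of all genes. Without the fold threshold 10 members had an adjusted p below 0.05 (15.4%, beside 1.85% of all genes), 9 higher (beside 1.48%) and 1 lower in flight (beside 0.374%). The higher ones were Calm3 (0.49, adjusted p = 0.000175), Ppp3r1 (0.44, adjusted p = 0.00105), Ppp3ca (0.39, adjusted p = 0.00119), Camk2b (0.39, adjusted p = 0.00139), Atp2b3 (0.35, adjusted p = 0.0161), Orai2 (0.40, adjusted p = 0.0253), Calm2 (0.29, adjusted p = 0.0286), Slc8a2 (0.32, adjusted p = 0.0333) and Camkk1 (0.32, adjusted p = 0.0477). Cacnb3 was the lower one (log2 -0.32, adjusted p = 0.0253). When the 4 regions of a mouse were first averaged to 1 value, an alternative chosen after seeing the data, 3 members passed (Calm3, Ppp3ca and Ppp3r1) and the other 7 did not. Leaving out 1 mouse gave 4 to 11. Calm3 passed under all 7 other settings and without each of the 12 mice in turn. In BuOE mice the same average gave 0 members at an adjusted p below 0.05 (beside 0.672% of all genes) and 0 past the fold threshold as well (beside 0.0887%).

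A call in DG and none in the cortex is not by itself a difference between the regions, so that difference was tested. No member passed the F test of flight by region in saline mice after adjustment, beside 0.0444% of all genes. At an unadjusted p below 0.05 it was 11 members (16.9%, beside 4.29% of all genes), with Cacna1a lowest (adjusted p = 0.244). Between pairs of regions no member passed either, beside 0.0127% of all genes for DG and FCT, for DG and CT and for CA and CT, 0.00634% for FCT and CT, and 0% for CA with DG or FCT. Orai2 differed in its flight difference by 1.13 between CA and FCT (adjusted p = 0.422). In all 4 regions 10 members lay above 0 (15.4%, beside 11.3% of all genes), among them Calm2, Calm3 and the calcineurin genes Ppp3ca, Ppp3cb, Ppp3r1 and Ppp3r2, and 4 lay below (6.15%, beside 7.88%).

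**Figure D3:**
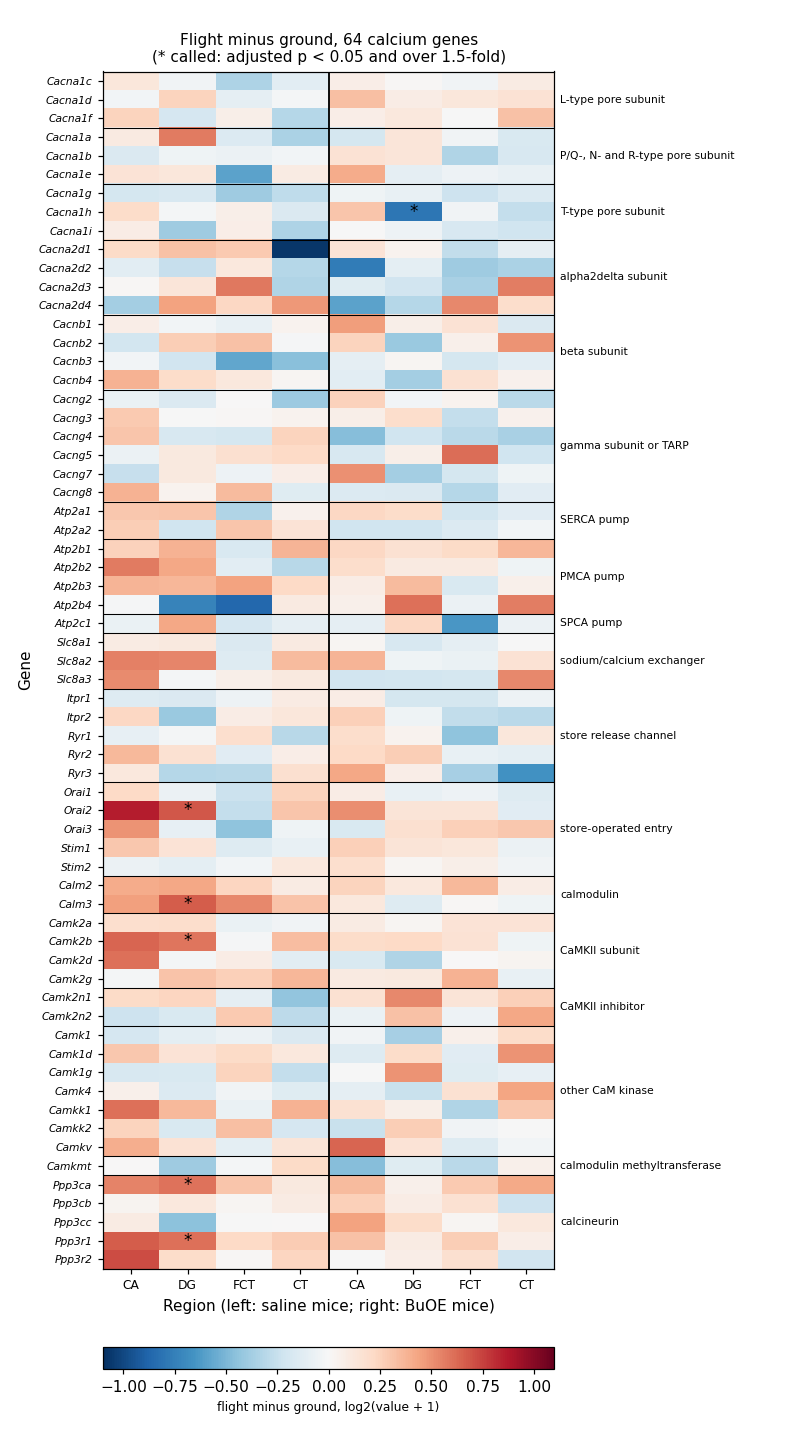
Flight minus ground in each region for 64 of the 65 genes, on the log2(value + 1) scale, for saline mice (left 4 columns) and BuOE mice (right 4 columns), with a star where a gene was called. The 5 stars in saline mice are all in DG, and the 1 star in BuOE mice is Cacna1h in DG.

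BuOE was compared with saline in flight mice. These comparisons share the FLT-SAL mice with the flight comparison above, so a value that happened to be high in FLT-SAL is high in both. No member was called in any region, where the share of all genes called was 0% (DG), 0.00634% (CA), 0.0317% (FCT) and 0.0697% (CT). At an unadjusted p below 0.05, CA had 0 members higher and 9 lower (all genes 1.27% and 3.69%), DG 2 and 12 (2.11% and 4.09%), FCT 7 and 3 (2.08% and 5.58%) and CT 6 and 4 (2.31% and 3.43%).

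The 5 genes called in DG in saline mice can be set side by side with their FLT-BuOE values there. Camk2b was at 227, 345 and 321 in FLT-BuOE, below all FLT-SAL mice, with a log2 difference of -0.35 (limma adjusted p = 0.610). Calm3 was at 88.4, 163 and 147 and overlapped the FLT-SAL mice (-0.50, adjusted p = 0.432). Ppp3ca (163, 200 and 178), Orai2 (68.4, 95.1 and 91.2) and Ppp3r1 (125, 126 and 121) all lay below the FLT-SAL range, with differences of -0.32, -0.41 and -0.26 (adjusted p = 0.753, 0.679 and 0.826). Atp2b4 was at 30.0, 27.5 and 31.1, above the FLT-SAL mice (0.65, adjusted p = 0.682). None of these passed.

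Whether flight differed from ground by another amount in BuOE mice than in saline mice was tested as an interaction. No member had an adjusted p below 0.05 in any region, where 0% of all genes passed for DG, 0.00634% for CA and for FCT, and 0.0190% for CT. In DG 12 members were lower and 2 higher at an unadjusted p below 0.05 (18.5% and 3.08%, beside 3.55% and 2.84% of all genes). The interaction subtracts the saline flight difference given above, so high FLT-SAL or low GC-SAL values lower it by themselves. These counts are therefore not separate from the saline comparison. The values furthest from 0 there were 1.34 for Atp2b4 (adjusted p = 0.329) and -0.81 for Calm3 (adjusted p = 0.387), and Camk2b was at -0.37 (adjusted p = 0.774). CA had 1 member higher and 2 lower at an unadjusted p below 0.05 (2.05% and 3.34% of all genes), FCT 3 and 5 (1.26% and 4.17%) and CT 6 and 1 (2.16% and 2.65%).

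In the cortex of flight mice the CaMKII inhibitor Camk2n1 (chromosome 4, 138454314-138460123, plus strand) came nearest to a call. In FCT it was at 1861, 1569 and 739 in FLT-BuOE and at 523, 646 and 884 in FLT-SAL. The third BuOE mouse lay inside the saline range, and the log2 difference of 0.95 (SE 0.21) had an adjusted p of 0.0567. In CT it was at 2067, 1973 and 1272 against 956, 949 and 1070, without overlap (0.81, adjusted p = 0.112). In ground mice of FCT it was at 1485, 1150 and 943 with BuOE and at 710, 813 and 642 with saline (0.71, adjusted p = 0.715).

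Cacna2d3 (chromosome 14, 28904943-29721864, minus strand), an alpha2delta subunit that carries channels to the membrane, followed in CT of flight mice. It was at 83.9, 78.9 and 70.0 in FLT-BuOE and at 40.8, 46.0 and 54.4 in FLT-SAL, without overlap (log2 0.72, SE 0.17, adjusted p = 0.0810). Ryr3 was at -0.71 (adjusted p = 0.138) and Camk2n2 at 0.64 (adjusted p = 0.163) in the same comparison.

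BuOE on the ground was compared with saline on the ground, which shares the GC-SAL mice with the flight comparison. Cacna2d3 in FCT was the only member called and the only gene called of 15782 (0.00634%). It was at 73.6, 48.2 and 56.4 in GC-BuOE and at 14.7, 22.8 and 35.3 in GC-SAL. The groups did not overlap (59.4 ± 12.9 against 24.3 ± 10.4, log2 1.32, SE 0.23, limma adjusted p = 0.0184). The gene lay at 2.63 times the negative-control probes in FCT (median of 12 areas), and it was not called after subtraction of that control (adjusted p = 0.147), with DESeq2 (adjusted p = 0.161), or without GC-SAL mouse 1, GC-BuOE mouse 1 or GC-BuOE mouse 3 (adjusted p = 0.313, 0.354 and 0.066). In CA, DG and CT no member was called, beside 0% of all genes in each by limma. At an unadjusted p below 0.05, FCT had 9 members higher and 1 lower, beside 3.23% and 2.40% of all genes. CA had 0 and 2 (2.72% and 2.88% of all genes), DG 1 and 2 (2.24% and 2.97%) and CT 2 and 1 (1.77% and 2.00%).

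Flight was then compared with ground in BuOE mice, which shares no mouse with the comparison in saline mice. Cacna1h (chromosome 17, 25374285-25433783, minus strand), the T-type pore that is highest in DG, was the only member called, and it fell in DG (beside 0.0634% of all genes called lower and 0.108% called in either direction). It was at 66.7, 101 and 85.6 in FLT-BuOE and at 110, 139 and 201 in GC-BuOE. The groups did not overlap, but GC-BuOE mouse 3 stood far above the others (84.5 ± 17.3 against 150 ± 46.6, log2 -0.80, SE 0.17, limma adjusted p = 0.0211). The DG area of that mouse had the lowest sequencing saturation of all 48 areas (81.7%, median 95.4%), and its part was not tested. Without that mouse the log2 difference was -0.56 (adjusted p = 0.350). The adjusted p was also past 0.05 without GC-BuOE mouse 2 (0.0899), FLT-BuOE mouse 1 (0.141) or FLT-BuOE mouse 3 (0.0609), and the call was lost with DESeq2 and after subtraction of the negative-control value. In saline mice the same gene overlapped in DG (128, 123.2 and 100 against 88.3, 142 and 131).

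The inhibitor Camk2n1 was higher in the same comparison, at 515, 574 and 432 in FLT-BuOE against 368, 305 and 381 in GC-BuOE, with a log2 difference of 0.53 below the fold threshold (adjusted p = 0.0274). In CA the nearest to a call was Camkv, a kinase-like protein of vesicles (269, 279 and 317 against 162, 207 and 186, log2 0.64, adjusted p = 0.0586). CA, FCT and CT had no called member, beside 0.0444%, 0.0190% and 0.0127% of all genes. At an unadjusted p below 0.05, CA had 8 members higher and 1 lower (3.45% and 4.07% of all genes), DG 3 and 3 (3.87% and 4.37%), FCT 3 and 3 (1.90% and 5.27%) and CT 9 and 1 (3.15% and 3.50%). The 5 genes called in DG in saline mice differed here by 0.22 for Camk2b, 0.05 for Ppp3ca, 0.14 for Orai2, 0.09 for Ppp3r1 and -0.14 for Calm3, each with overlapping groups and adjusted p-values of 0.670 to 0.952.

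**Figure D4:**
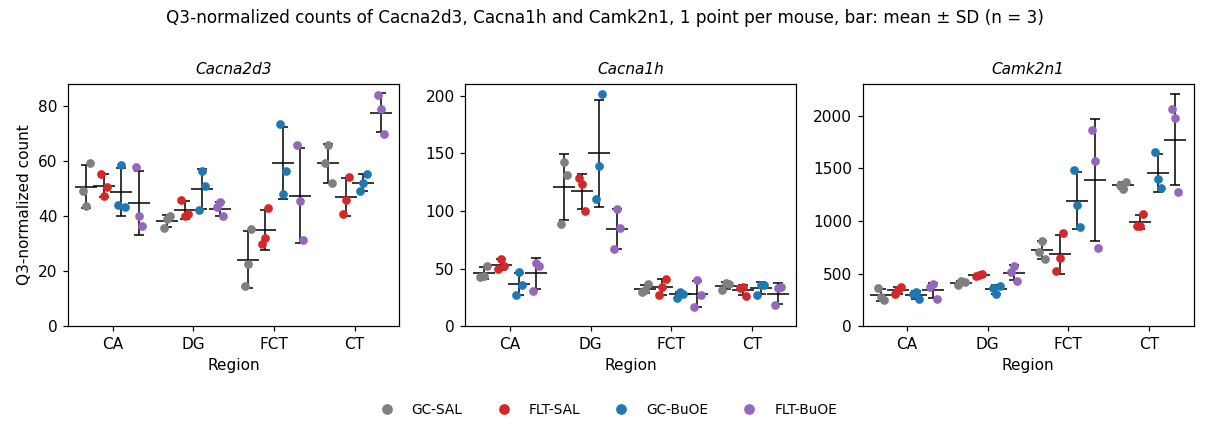
Q3-normalized counts (vertical axis, from 0, a scale for each gene) of Cacna2d3, Cacna1h and Camk2n1 in the 4 regions (horizontal axis), with 1 point per mouse, a long bar for the mean and whiskers for the SD (n = 3). Camk2n1 is higher in the cortex than in the hippocampus in every group, GC-BuOE lies above GC-SAL for Cacna2d3 in FCT, and FLT-BuOE lies below GC-BuOE for Cacna1h in DG.

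Other genes of the calcium pathway, outside the 65, were counted in the saline flight comparison of DG, where 0.247% of all genes were called higher. These lists too were chosen with results of these data known. Of 8 calcium buffers and sensors, 2 rose: Hpca, the hippocampal sensor hippocalcin (log2 0.71, adjusted p = 0.00124), and Ncald, neurocalcin (0.65, adjusted p = 0.0184). Of 10 calmodulin-binding proteins, Nrgn, which holds calmodulin at the synapse, rose (0.64, adjusted p = 0.000477). Of 6 calcium-activated adenylyl cyclases and phosphodiesterases, Adcy1, a cyclase that calmodulin switches on, rose (0.78, adjusted p = 0.000257). None of these lists had a gene called lower, and none was called among 7 mitochondrial calcium genes, 5 potassium-dependent sodium/calcium exchangers and 8 genes of the NFAT and CREB family. In CA Hpca was the only gene of the 6 lists called (0.83, adjusted p = 0.00131), beside 0.139% of all genes, and in FCT (0.0507% of all genes) and CT (0.0887%) none was. With BuOE in flight mice, none of the lists had a called gene in any region, beside at most 0.0697% of all genes.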

How the data were processed

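RNA was profiled in 48 areas of 12 mice with the Mouse Whole Transcriptome Atlas probes. The authors sequenced the released tags and made deduplicated counts per probe with the GeoMx NGS Pipeline 2.3.4, and they deposited these counts and, for each region, a table of Q3-normalized signal for 15782 genes. Of the deposited normalized values, 99.98% were whole multiples, within 0.02, of the value of 1 count in their area, and these counts were used for edgeR and DESeq2. The authors' own comparison tables (fold changes and p-values) were not used, and 0 columns of values were left out for lack of a sample.

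Each region was fitted with limma 3.58.1 (R 4.3.3, mean-variance trend) on log2(value + 1) over all 15782 genes with the 4 groups in 1 model (8 residual degrees of freedom) and Benjamini-Hochberg adjustment. A call needed a difference of over 1.5-fold besides an adjusted p below 0.05, thresholds taken from the study's methods. Differences on this scale understate those of low genes. Region comparisons and flight averages used all 48 areas with mouse as a random block (correlation 0.0255), where areas of a group with the same replicate number were taken as 1 mouse. With 3 mice a group, exact permutation cannot give a p below 0.1, so none was run. The fits were tested on simulated counts with changes of 1 or 2 on the log2 scale and no mouse or slide effect. That simulation does not bear on differences near 1.5-fold or on slides. Replicate areas were checked for duplicate deposits, and the 2 areas differed by more than counting noise in all 48 pairs of a group. Alternatives were another pseudocount (0.5 or 5), a filter at 1.5 times the negative control, quantile normalization, subtraction of the negative-control value, only the 2 groups compared, a replicate block, edgeR 4.0.16, DESeq2 1.42.0 and each mouse left out.

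Single values of 1 member are not reported here. The 65 genes, their classes and the other lists were chosen with earlier results of these data known. Values are given for the genes Camk2b, Ppp3r1, Orai2 and Atp2b4, for every member called, for members among the 3 smallest p-values of a class or region, and for the called members that differ most between regions. Promoter sequences are from RefSeq (GRCm38.p6), with an entry for 48 of the 65 genes. Depth limits low genes: log2 differences of genes near the negative control carry the largest errors.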

Additional observations from a re-analysis of the deposited data

How the results depend on the processing

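Each count of called members was recomputed under the other settings and with each mouse left out, and 505 such counts stayed within 1.5 times the value given while 79 did not. The 505 include counts of 0 that stayed 0, so they are no measure of how stable the calls were. Counts of all genes under other settings are given only for flight in saline mice in DG. Elsewhere the member counts do not show whether a setting changed the calls of all genes alike. Of the single-gene values recomputed, 881 stayed on their side of the threshold, 125 lost a call and 0 called values changed sign. The 881 pool the region comparisons with the others and include Atp2b4 in DG, whose flight difference was never called. They do not measure how stable the flight and BuOE calls were. The 5 genes called in DG in saline mice kept their calls in 6 to 8 of 12 fits without 1 mouse. Under the 9 other settings they kept them in 4 to 7. For flight in saline mice, CA gave 3 members with edgeR, the filter, 2 groups only or the replicate block and 2 with DESeq2, DG gave 0 with quantile normalization and 0 after subtraction of the negative-control value, and CT gave 1 with edgeR and 1 with quantile normalization. For BuOE in flight mice, FCT gave 1 with edgeR, a pseudocount of 5 or the replicate block, and CT gave 1 with DESeq2 or edgeR and 2 with quantile normalization or the replicate block. For BuOE on the ground, FCT gave 0 with DESeq2, 0 after subtraction and 2 with 2 groups only. For flight in BuOE mice, CA gave 1 with edgeR, the filter, subtraction, a pseudocount of 5 or the replicate block, and DG gave 0 with DESeq2, 0 after subtraction and 2 with no fold threshold. DG against CA gave 28 after subtraction and 31 with no fold threshold, FCT against CT gave 8 with no fold threshold and 1 with a pseudocount of 5 or quantile normalization, and hippocampus against cortex gave 31 after subtraction and 44 with no fold threshold. The flight average in saline mice gave 10 with no fold threshold, and at an adjusted p below 0.05 it gave 3 with mouse means (chosen after seeing the data) and 6 after subtraction. With each mouse left out in turn, flight in saline mice gave 0 to 3 in CA, 0 to 6 in DG, 0 to 1 in FCT and 0 to 1 in CT. BuOE in flight gave 0 to 2 in FCT and 0 to 2 in CT and 0 elsewhere. BuOE on the ground gave 0 to 1 in FCT and 0 elsewhere. Flight in BuOE mice gave 0 to 1 in CA and DG and 0 elsewhere. DG against CA gave 13 to 16, FCT against CT 1 to 3, and hippocampus against cortex 18 to 20. The flight average gave 0 to 2 past the fold threshold and 4 to 11 at an adjusted p below 0.05 in saline mice, and 0 and 0 to 2 in BuOE mice. The cause of these changes was not tested. Replicate numbers did not pair the mice: the correlation of deviations between same-numbered areas of a region was -0.179 to 0.096 and passed 0.1 in 0 of 48 pairs. As a block, the number left 5 calls in DG, with the counts given above elsewhere. Over all genes in DG, flight in saline mice gave 42 calls with limma, 15 with quantile normalization, 27 after subtraction, 50 with the replicate block, 71 with edgeR and 41 with DESeq2.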
